A study of Mus musculus with 4 samples.

Results

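The 26 genes described here encode the receptors through which GABA and glycine act in the brain, the proteins that hold those receptors at inhibitory synapses, and the transporters that set the chloride gradient the receptors work on. They were taken by gene symbol from the 32285 genes of the spatial transcriptomic feature lists. The list holds 12 GABA-A receptor subunits, the GABA-B subunits Gabbr1 and Gabbr2 with their auxiliary subunit Kctd12, 4 glycine receptor subunits, the scaffold gephyrin (Gphn), the adhesion protein neuroligin 2 (Nlgn2), the chloride transporters Slc12a2 and Slc12a5, and 3 genes of the GABARAP family.

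GABA-A receptors are chloride channels assembled from several subunits, and the subunits chosen decide where the receptor sits and how slowly its current decays. Most receptors with a gamma subunit gather at synapses, whereas receptors with the delta subunit lie largely outside them and carry a slow tonic current. Receptors with the alpha 5 subunit also lie largely outside synapses, although most of them hold a gamma subunit. GABA-B receptors are instead coupled to G proteins, and glycine receptors are chloride channels best known from the spinal cord and brainstem. In the hippocampus, inhibition through these receptors limits which principal cells fire together.

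Spatial transcriptomics (Visium) places a tissue section on an array of barcoded spots and counts transcripts as unique molecular identifiers (UMIs) in each spot. A spot is a small region that can hold several cells of different types. The 4 sections were coronal sections of the dorsal hippocampus and the tissue around it from ArcCreERT2::eYFPflx male mice 3 to 4 months old on a C57BL/6 background, with 1 section from each of 4 mice. The 2 trained mice had learned to avoid a shock zone in the active place avoidance task, and the 2 untrained mice were placed in the same arena with no active shock zone. All 4 mice received 4-hydroxytamoxifen under brief isoflurane before the retention test, carried CreERT2 driven by the Arc promoter, and were killed 3 days after that test. The sections held 2359 to 3055 spots and 3560294 to 10330015 UMIs, and untrained 1 was the shallowest.

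Spots were placed in 15 regions by marker genes that are not members. The smallest region held 24 spots in 1 section, and 20.2% to 31.2% of the spots of a section stayed unassigned. In all 4 sections the summed markers were highest in the region of their own name, with these exceptions. The ependymal markers summed to 203 CPM in the ependymal region of untrained 1 and to 514 CPM in its choroid plexus region. The meninges markers summed to 635 CPM in the meninges of trained 1 and to 1261 CPM in its choroid plexus region. A marker was used in a section where at least 20 spots held it. In untrained 1 this left 1 of the 6 ependymal markers, so 1 gene placed its ependymal region. It left 4 of 8 markers each for the choroid plexus and the medial habenula of untrained 1. The sections did not cut the brain alike. Over the whole section, the thalamus markers summed to 1340 CPM in trained 2 against 773 to 875 CPM in the other sections, the hypothalamus markers to 3767 against 1630 to 2430 CPM, the white matter markers to 6898 against 4155 to 4623 CPM, and the choroid plexus markers to 531 against 2459 to 5525 CPM. A pair of regions is called by the marker lists that placed them, the medium spiny list (Drd1, Adora2a, Penk and others) and the piriform and amygdala list (Nr2f2, Lmo3, Rspo1 and others). A difference in a region can come from fewer cells of a type or from less RNA per cell, and the spot sums cannot tell these apart.

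**Figure D1:**
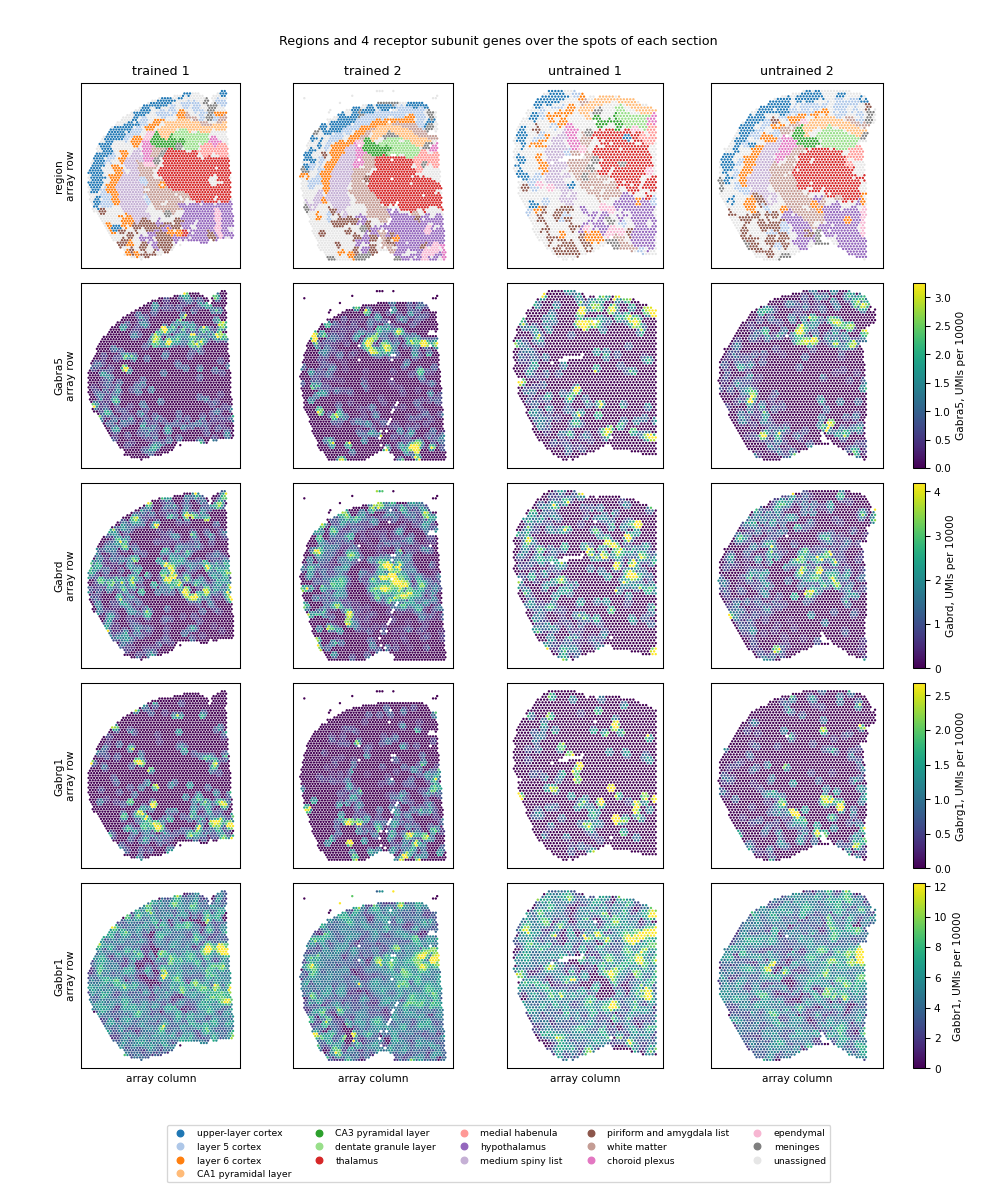
Spots of the 4 sections at their array row and column, colored by region in the top row and, below it, by the level of Gabra5, Gabrd, Gabrg1 and Gabbr1 as UMIs per 10000 UMIs over a spot and its neighbors. Gabra5 was brightest along the hippocampal cell layers, Gabrd in the thalamus, Gabrg1 in the lower part of the section that holds the hypothalamus, and Gabbr1 in the medial habenula.

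Which regions held which receptor genes was asked first. Levels are given as CPM, the UMIs of a gene per 1000000 UMIs of a summed region, always in the order trained 1, trained 2, untrained 1 and untrained 2 where 4 values stand together. Each region was tested against the mean of the other 14 regions, with the section as a block. Of the 26 members, 18 passed the filter on low counts, which gave 270 pairs of member and region. By edgeR's quasi-likelihood test at an adjusted p under 0.05, 57 pairs were higher (21.1%) and 32 were lower (11.9%). Over all 122820 pairs of gene and region, 9.46% were higher and 6.14% were lower. Of the 89 calls, 53 were also made when each section was left out in turn, and 33 under every alternative tried. 2 of these alternatives ended more calls than the others did, regions drawn from each spot's own markers without its neighbors (single-spot scores, 41 calls lost) and sums thinned to equal totals (thinned sums, 35 lost, 4 of them for lack of a test). Where 1 of the 89 calls is given with its values and is lost without 1 section or under another alternative, this is said beside it. Calls of members that did not pass the filter come from the fit with no filter alone. Whether those calls hold under the other alternatives is not given.

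**Figure D2:**
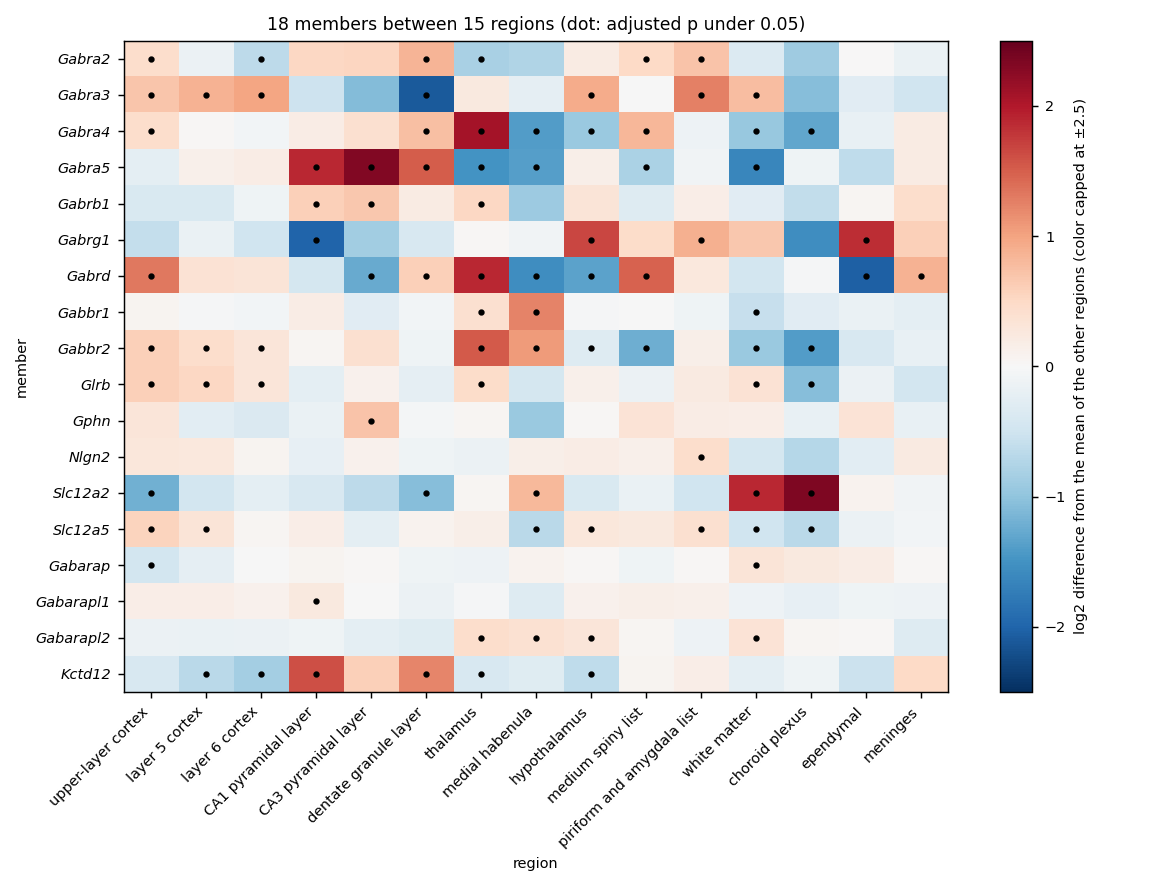
Log2 difference of each tested member (rows) in each region (columns) from the mean of the other regions, with a dot where the adjusted p was under 0.05. The largest positive cells are Slc12a2 in the choroid plexus at 2.34, Gabra5 in the CA3 pyramidal layer at 2.32 and Gabra4 in the thalamus at 2.08.

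Among the alpha subunits, Gabra5 marked the hippocampus and Gabra4 the thalamus. Gabra5, the subunit of a largely extrasynaptic receptor of pyramidal cells, stood at 217, 235, 126 and 252 CPM in the CA3 pyramidal layer. Its level was 136, 163, 205 and 174 CPM in the CA1 pyramidal layer and 147, 112, 185 and 115 CPM in the dentate granule layer. Every one of these 12 values was above every value of Gabra5 in the remaining regions, of which the highest was 85.6 CPM in the choroid plexus of untrained 1, from 4 UMIs. The log2 differences were 2.32 ± 0.18 (SE, adjusted p = 5.68e-20) in CA3, 1.88 ± 0.17 (adjusted p = 1.74e-16) in CA1 and 1.52 ± 0.20 (adjusted p = 7.66e-10) in the dentate granule layer. The 3 layers overlapped one another in their ranges over the sections. Gabra5 was lower in the thalamus, at 14.5 to 29.3 CPM, with a log2 difference of -1.50 ± 0.19 (adjusted p = 1.43e-10), and in the white matter, where the difference was -1.63 ± 0.30 (adjusted p = 8.76e-06).

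Gabra4, which pairs with the delta subunit in tonic receptors of the forebrain, had 252, 338, 274 and 243 CPM in the thalamus. All 4 sections there lay above every other region, and the log2 difference was 2.08 ± 0.10 (adjusted p = 7.20e-34). It was also higher in the region of the medium spiny list, at 110, 150, 135 and 73.2 CPM, by 0.82 ± 0.15 (adjusted p = 7.83e-06). The dentate granule layer had 126, 69.5, 136 and 150 CPM, which was higher by 0.75 ± 0.21 (adjusted p = 0.00509), and this call was lost without untrained 2 (adjusted p = 0.190). In the hypothalamus Gabra4 was lower, with a log2 difference of -0.92 ± 0.17 (adjusted p = 1.44e-05).

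Gabra3 was higher in 6 regions and lower in 1, and each of these calls was lost under at least 1 alternative. The upper-layer cortex call was lost without untrained 2 and with single-spot scores, and the white matter call under 5 alternatives. The region of the piriform and amygdala list had 77.4, 74.7, 80.9 and 87.2 CPM, a log2 difference of 1.27 ± 0.17 (adjusted p = 2.68e-08), and layer 6 cortex had 80.8, 59.5, 67.1 and 65.2 CPM, a difference of 0.99 ± 0.17 (adjusted p = 5.85e-06). With single-spot scores these differences were 0.40 (adjusted p = 0.220) and 0.35 (adjusted p = 0.215), and both calls were lost. It was also higher in the hypothalamus, at 60.7, 63.4, 57.4 and 68.4 CPM (0.93 ± 0.16, adjusted p = 1.68e-06), and in layer 5 cortex, at 45 to 78.2 CPM (0.87 ± 0.18, adjusted p = 0.000118). With thinned sums both were lost (0.51, adjusted p = 0.168, and 0.69, adjusted p = 0.127), and with single-spot scores the layer 5 difference was 0.01 (adjusted p = 0.989). The dentate granule layer was the region where Gabra3 was called lower, with 7 UMIs over all 4 sections and a log2 difference of -2.09 ± 0.44 (adjusted p = 0.000168). This call was lost with thinned sums (-1.62, adjusted p = 0.0887) and with single-spot scores (-0.26, adjusted p = 0.507). The CA3 pyramidal layer was not called, although its mean of 13.6 CPM was as low as the 13.7 CPM of the dentate granule layer. Gabra2, the other widespread alpha subunit of forebrain synapses, was lower in the thalamus, at 26.8 to 31.8 CPM in all 4 sections, by a log2 difference of -0.81 ± 0.16 (adjusted p = 2.03e-05). Its level in the dentate granule layer was 83.9, 46.3, 136 and 119 CPM, higher by 0.84 ± 0.21 (adjusted p = 0.00162), and without untrained 2 the adjusted p was 0.134. In the region of the piriform and amygdala list Gabra2 had 87.4, 48.0, 86.5 and 110 CPM, higher by 0.72 ± 0.16 (adjusted p = 0.000472), a call also lost without untrained 2 (adjusted p = 0.0937) and with single-spot scores (adjusted p = 0.132). Gabra6, known from cerebellar granule cells, was found in 1 UMI over all sections and was not tested.

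Gabrd, the delta subunit of tonic receptors, was higher in 5 regions and lower in 4. The thalamus had 167, 227, 175 and 160 CPM, a log2 difference of 1.89 ± 0.10 (adjusted p = 8.03e-31). It was also higher in the region of the medium spiny list, at 140, 163, 109 and 110 CPM (1.47 ± 0.13, adjusted p = 5.99e-17), and in upper-layer cortex, at 123, 158, 122 and 114 CPM (1.33 ± 0.13, adjusted p = 1.50e-14). In the hypothalamus the difference was -1.34 ± 0.19 (adjusted p = 6.25e-09) and in the medial habenula, with 10 UMIs over 4 sections, it was -1.56 ± 0.39 (adjusted p = 0.00226). The habenula call was lost with thinned sums (adjusted p = 0.225) and with single-spot scores (-0.63, adjusted p = 0.114). Dentate granule cells are a known site of the delta subunit. There Gabrd had 73.4, 73.3, 98.7 and 80.4 CPM, higher by 0.60 ± 0.21 (adjusted p = 0.0388), and this call was lost without any 1 of the 4 sections, with adjusted p-values of 0.0520 without trained 1, 0.130 without trained 2, 0.0544 without untrained 1 and 0.262 without untrained 2. It was also lost under 4 other alternatives, and with single-spot scores the difference was 0.03 (adjusted p = 0.960). As a description, the profiles of Gabra4 and Gabrd over the 15 regions had a Pearson r of 0.69, where the points share libraries and depth.

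Gabrb1, a beta subunit, was higher in 3 regions. In the thalamus it stood at 71.1, 65.8, 87.8 and 67.9 CPM, a log2 difference of 0.52 ± 0.13 (adjusted p = 0.000801). The call was made without each section in turn, but with thinned sums the difference was 0.23 (adjusted p = 0.445). The differences in CA1 (0.59 ± 0.21, adjusted p = 0.0456) and CA3 (0.68 ± 0.24, adjusted p = 0.0449) were both lost without trained 1, with adjusted p-values of 0.394 and 0.392, and also without trained 2 in CA1 (adjusted p = 0.138) and without untrained 2 in CA3 (adjusted p = 0.209). With single-spot scores they were 0.10 (adjusted p = 0.798) and 0.19 (adjusted p = 0.641). Both were also lost with no filter (adjusted p = 0.0748 and 0.120), no section block (adjusted p = 0.0712 and 0.0740) and thinned sums (adjusted p = 0.139 and 0.525), and the CA3 call with the stricter assignment (adjusted p = 0.107). Gabrb2 was found in 35 UMIs over all sections, 9 of them in the thalamus, and did not pass the filter between regions.

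Gabrg1, a gamma subunit also made by glia, was higher in the hypothalamus, which had 88.4, 70.9, 43.9 and 68.4 CPM, a log2 difference of 1.67 ± 0.17 (adjusted p = 5.20e-14). Gabrg1 did not pass the filter in the thinned sums and was not tested there. In the ependymal region it stood at 123, 52.1, 88.9 and 47.1 CPM from 28 UMIs in all, higher by 1.85 ± 0.39 (adjusted p = 0.000565), and the call was lost without trained 1 (adjusted p = 0.164) and with single-spot scores (0.08, adjusted p = 0.976). The region of the piriform and amygdala list had 59.6, 61.4, 11.2 and 36.6 CPM, higher by 0.89 ± 0.23 (adjusted p = 0.00593), which was lost without trained 1 (adjusted p = 0.171) and without trained 2 (adjusted p = 0.0751), and was 0.26 with single-spot scores (adjusted p = 0.712). The CA1 pyramidal layer held 6 UMIs of Gabrg1 over the 4 sections, a difference of -2.0 ± 0.53 (adjusted p = 0.00369), and with single-spot scores it was -0.48 (adjusted p = 0.272). Gabrg3, with 408 UMIs over all sections, did not pass the filter. Tested without it, Gabrg3 was higher in layer 6 cortex (1.04 ± 0.28, adjusted p = 0.00622), at 13.2, 20.9, 26.8 and 31.5 CPM, and in the hypothalamus (0.96 ± 0.26, adjusted p = 0.00272), at 29.0, 15.8, 10.1 and 22.8 CPM.

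4 of these genes lie in 1 cluster on chromosome 5 (GRCm38, GENCODE vM21 gene models). Gabrg1 spans chr5:70751047-70842617, Gabra2 chr5:70957597-71095849 and Gabra4 chr5:71569749-71658308, all on the minus strand, and Gabrb1 spans chr5:71658113-72149037 on the plus strand. Gabra4 and Gabrb1 start head to head, and their gene models overlap by 196 bases. The windows around the 4 starts, 300 bases each from RefSeq (GRCm38.p6), are shown because the neighbors shared some calls and not others. In the thalamus Gabra4 was higher by 2.08 and Gabra2 was lower, while the call of Gabrb1 there (0.52) was lost with thinned sums. In the hypothalamus Gabrg1 was higher and Gabra4 was lower. Gabra2 and Gabra4 were both higher in the dentate granule layer, and Gabrg1 and Gabra2 in the region of the piriform and amygdala list, calls that are lost without 1 section as given above. Gabra2 and Gabra4 were also both higher in upper-layer cortex (0.44 and 0.45) and the region of the medium spiny list (0.50 and 0.82). Without trained 2, both upper-layer calls (adjusted p = 0.141 and 0.205) and that of Gabra2 in the medium spiny list (adjusted p = 0.331) were lost. Without trained 1 the upper-layer call of Gabra4 (adjusted p = 0.0759) and the medium spiny list call of Gabra2 (adjusted p = 0.0611) were lost, and without untrained 1 the upper-layer call of Gabra2 (adjusted p = 0.120). Each of these 3 was lost in 4 to 6 of the 11 alternatives. Each is printed on its gene's own strand, 5′ to 3′, from 250 bases before RefSeq's start to 50 after it, with CG dinucleotides in capitals. RefSeq's start of Gabrb1 lies 192 bases upstream of the GENCODE start, so its window ends before the GENCODE gene model begins and lies within that of Gabra4. For the other 3 genes both starts are the same.
Gabrg1: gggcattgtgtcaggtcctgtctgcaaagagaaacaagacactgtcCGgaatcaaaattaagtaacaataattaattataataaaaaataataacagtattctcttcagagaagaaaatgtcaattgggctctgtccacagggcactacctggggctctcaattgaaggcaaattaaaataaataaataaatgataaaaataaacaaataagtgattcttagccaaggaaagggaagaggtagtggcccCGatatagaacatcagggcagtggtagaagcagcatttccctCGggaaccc
Gabra2: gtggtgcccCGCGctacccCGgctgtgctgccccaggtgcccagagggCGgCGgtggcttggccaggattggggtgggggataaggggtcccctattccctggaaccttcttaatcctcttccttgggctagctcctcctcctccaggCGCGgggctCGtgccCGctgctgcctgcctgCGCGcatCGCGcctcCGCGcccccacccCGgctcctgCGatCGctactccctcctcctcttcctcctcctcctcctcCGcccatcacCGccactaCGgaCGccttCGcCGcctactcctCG
Gabra4: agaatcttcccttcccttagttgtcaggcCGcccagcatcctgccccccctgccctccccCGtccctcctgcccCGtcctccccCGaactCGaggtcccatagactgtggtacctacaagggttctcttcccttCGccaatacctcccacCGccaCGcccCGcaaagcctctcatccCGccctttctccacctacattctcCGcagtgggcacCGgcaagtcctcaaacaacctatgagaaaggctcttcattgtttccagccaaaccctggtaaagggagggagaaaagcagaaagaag
Gabrb1: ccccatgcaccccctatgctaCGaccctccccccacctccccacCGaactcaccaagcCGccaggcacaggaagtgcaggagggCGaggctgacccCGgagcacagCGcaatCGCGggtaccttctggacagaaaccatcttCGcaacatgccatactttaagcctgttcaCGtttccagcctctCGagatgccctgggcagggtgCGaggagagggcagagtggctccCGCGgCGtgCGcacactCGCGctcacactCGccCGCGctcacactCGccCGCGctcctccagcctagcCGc
The windows lie at chr5:70842568-70842867, chr5:71095800-71096099, chr5:71658259-71658558 and chr5:71657671-71657970. The Gabrg1 window held 3 CG dinucleotides, fewer than the median of 7 over 32851 windows of the same length, and the Gabra4 window held 12. The Gabra2 and Gabrb1 windows held 25 each, a number that 18.4% of all windows reach. The table holds a further window for Gabrb1, which is not printed. The letters TGACGTCA, the cAMP response element, were found on neither strand of the 4 windows and are in 1.79% of all windows.

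The subunits Gabre (epsilon) and Gabrq (theta), whose genes lie on the X chromosome, were detected mainly in 1 region. Gabrq had 26.4, 70.0, 50.6 and 27.4 CPM in the hypothalamus, which held 137 of its 225 UMIs. In the 3 hippocampal layers together it was found in 0 UMIs in all 4 sections, which allows a level of up to 1.24 CPM from 3 UMIs. Gabre had 14.5, 22.5, 10.1 and 18.2 CPM in the hypothalamus, which held 53 of its 94 UMIs. Neither gene passed the filter between regions. In the fit with no filter, Gabrq was higher in the hypothalamus by a log2 difference of 4.38 ± 0.28 (adjusted p = 2.78e-53) and Gabre by 3.78 ± 0.42 (adjusted p = 1.25e-17), and both were also higher in the ependymal region (adjusted p = 0.000362 and 0.00157), where Gabre had 6 UMIs, 5 of them in trained 1. Gabrq was also higher in the region of the piriform and amygdala list (2.03 ± 0.48, adjusted p = 0.00112).

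For the GABA-B receptor, which works only as a pair of Gabbr1 and Gabbr2, both subunits were higher in the medial habenula and the thalamus. Gabbr1, the subunit that binds GABA, had 1181, 1047, 1168 and 1119 CPM in the medial habenula, 1129 ± 60.6 CPM (SD, n = 4), and every section there lay above every other region. The log2 difference was 1.23 ± 0.09 (adjusted p = 1.71e-21). Gabbr2, the subunit that couples to the G protein, had 353, 299, 246 and 393 CPM in the medial habenula (1.06 ± 0.15, adjusted p = 3.63e-08). Its highest level was in the thalamus, at 419, 444, 364 and 403 CPM, with a difference of 1.52 ± 0.08 (adjusted p = 6.99e-32).

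In the region of the medium spiny list Gabbr2 was lower, at 64.9, 61.6, 67.6 and 81.0 CPM, by a log2 difference of -1.22 ± 0.14 (adjusted p = 1.69e-11). Gabbr1 had 484, 392, 437 and 468 CPM there and was not called (-0.01 ± 0.08, adjusted p = 0.967). In the white matter both were lower, Gabbr1 by -0.57 ± 0.10 (adjusted p = 1.37e-06) and Gabbr2 by -0.92 ± 0.16 (adjusted p = 2.52e-06), the latter lost with thinned sums (adjusted p = 0.0514). Kctd12, the auxiliary subunit that speeds desensitization of the receptor, was higher in CA1 and the dentate granule layer. It had 264, 193, 174 and 230 CPM in the CA1 pyramidal layer (1.61 ± 0.16, adjusted p = 3.88e-15) and 215, 178, 173 and 126 CPM in the dentate granule layer (1.22 ± 0.18, adjusted p = 5.64e-08). In layer 6 cortex it was lower, at 33.1 to 67.1 CPM, by -0.86 ± 0.18 (adjusted p = 0.000242).

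Of the glycine receptor subunits, Glrb, the beta subunit that binds gephyrin, was the 1 that passed the filter. It was higher in upper-layer cortex, at 258, 392, 224 and 279 CPM (0.60 ± 0.09, adjusted p = 8.26e-08), in layer 5 cortex (0.52 ± 0.09, adjusted p = 8.77e-06) and in the thalamus, at 271, 266, 266 and 247 CPM (0.45 ± 0.08, adjusted p = 5.37e-06). It was lower in the choroid plexus, by -1.07 ± 0.22 (adjusted p = 0.000138), which was lost with thinned sums (adjusted p = 0.0730). The alpha subunits Glra2 and Glra3 had 451 and 324 UMIs over all sections.

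The highest mean levels of both alpha subunits were in the hypothalamus. Glra2 had 54.1, 35.9, 27.0 and 30.4 CPM there and Glra3 had 29.0, 35.9, 20.2 and 28.9 CPM. With no filter, Glra2 was higher there by 1.83 ± 0.22 (adjusted p = 3.11e-15) and Glra3 by 2.36 ± 0.26 (adjusted p = 5.19e-17). Glra3 was also higher in the region of the piriform and amygdala list (1.68 ± 0.35, adjusted p = 0.000100). Glra2 was higher there too (1.06 ± 0.29, adjusted p = 0.00905), in layer 6 cortex (1.11 ± 0.27, adjusted p = 0.00124) and in the region of the medium spiny list (0.92 ± 0.29, adjusted p = 0.0210), and lower in upper-layer cortex (-1.77 ± 0.46, adjusted p = 0.00241). Glra1, the adult subunit of the spinal cord and brainstem, was found in 1 UMI and was not tested.

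**Figure D3:**
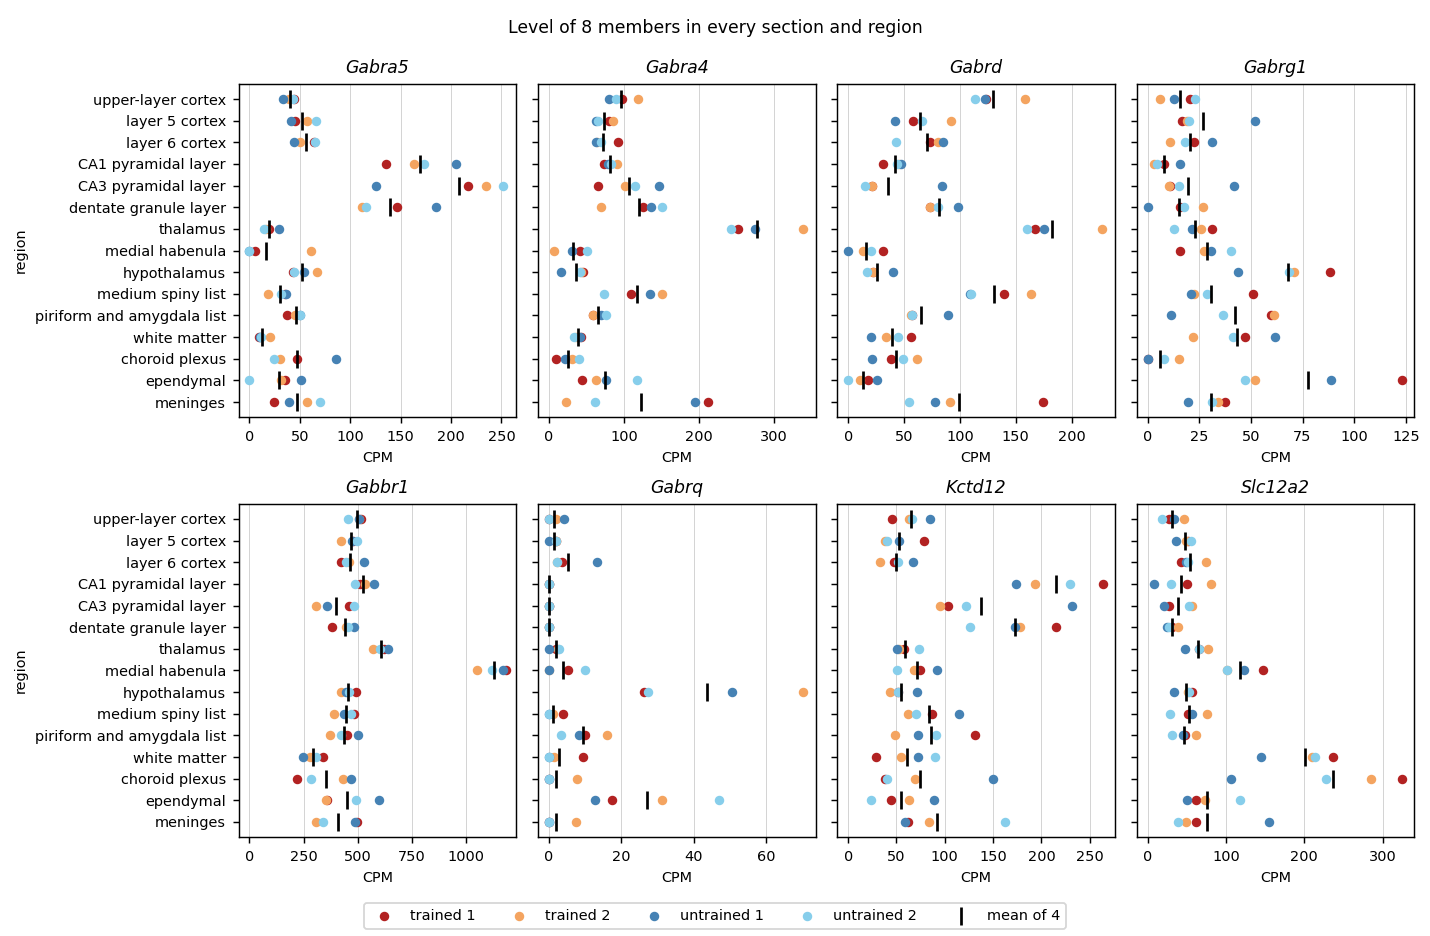
CPM (x axis) of 8 members in the 15 regions (y axis), with 1 point per section and a bar at the mean of the 4 sections. The 4 points of Gabra4 in the thalamus and of Gabbr1 in the medial habenula lie above all other regions, and Gabrq lies between 26.4 and 70.0 CPM in the hypothalamus.

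The postsynaptic proteins were called in 1 region each. Gphn, the scaffold under glycine and GABA-A receptors, was higher in the CA3 pyramidal layer, at 92.1, 91.3, 105 and 68.7 CPM (0.71 ± 0.21, adjusted p = 0.0111), and the call was lost without trained 1 (adjusted p = 0.0967) and without trained 2 (adjusted p = 0.201), with no filter (adjusted p = 0.0671), with thinned sums (adjusted p = 0.499) and with single-spot scores (adjusted p = 0.161). Nlgn2, the adhesion protein of inhibitory synapses, was called in 1 region, that of the piriform and amygdala list, at 123, 93.4, 145 and 174 CPM (0.44 ± 0.13, adjusted p = 0.0140), and without untrained 2 the adjusted p was 0.380. It was also lost with single-spot scores (adjusted p = 0.209) and a stricter assignment of spots (adjusted p = 0.0690).

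The chloride transporters were higher in different regions. Slc12a2 (NKCC1) brings chloride into cells and is also used by glia and by the epithelium that makes cerebrospinal fluid, while Slc12a5 (KCC2) expels chloride from mature neurons. Slc12a2 had 325, 285, 107 and 228 CPM in the choroid plexus (2.34 ± 0.20, adjusted p = 2.72e-17) and 236, 210, 144 and 213 CPM in the white matter (1.88 ± 0.14, adjusted p = 3.58e-21). It was lower in upper-layer cortex, at 17.8 to 45.9 CPM (-1.19 ± 0.20, adjusted p = 8.57e-07), and in the dentate granule layer, at 24.7 to 38.6 CPM (-1.07 ± 0.28, adjusted p = 0.00341), the latter lost with single-spot scores (-0.40, adjusted p = 0.213). Slc12a5 was higher in upper-layer cortex, at 490, 576, 452 and 461 CPM (0.56 ± 0.08, adjusted p = 6.04e-08), and lower in the white matter (-0.49 ± 0.11, adjusted p = 0.000443), the choroid plexus (-0.68 ± 0.17, adjusted p = 0.00193) and the medial habenula (-0.67 ± 0.15, adjusted p = 0.000693). With single-spot scores the choroid plexus difference was -0.21 (adjusted p = 0.338) and the habenula difference -0.05 (adjusted p = 0.895), and the habenula call was also lost with thinned sums (adjusted p = 0.0711). In the medial habenula Slc12a2 had 148, 102, 123 and 101 CPM and was higher by 0.81 ± 0.24 (adjusted p = 0.0130), a call lost without trained 1 (adjusted p = 0.387), with thinned sums (adjusted p = 0.0573) and with single-spot scores (0.08, adjusted p = 0.935).

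The GABARAP family, small proteins of receptor traffic and autophagy, had 7 calls, with log2 differences from -0.46 to 0.43. Each of its genes was tested in 15 regions. Over all genes, 9.46% of the pairs of gene and region were higher and 6.14% were lower. The count of 7 therefore does not show that the family was called more often than other genes. Gabarapl2 was higher in the thalamus, at 445, 565, 388 and 423 CPM (0.43 ± 0.08, adjusted p = 3.17e-06), and in the hypothalamus (0.30 ± 0.08, adjusted p = 0.00380), the latter lost with no section block (adjusted p = 0.0600). Gabarap was lower in upper-layer cortex, at 174 to 207 CPM (-0.46 ± 0.10, adjusted p = 0.000204), which was lost with single-spot scores (-0.22, adjusted p = 0.0575). Gabarapl1 was called in the CA1 pyramidal layer alone (0.25 ± 0.09, adjusted p = 0.0421), and this call was lost without trained 1 (adjusted p = 0.228), without untrained 1 (adjusted p = 0.178) and without untrained 2 (adjusted p = 0.225), and under 4 other alternatives (adjusted p = 0.0766 to 0.107).

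Whether these genes differed between trained and untrained mice 3 days after the retention test was asked next, first over whole sections. Of the 26 members 24 were tested, and by edgeR's quasi-likelihood test 0 passed an adjusted p of 0.05. Over all genes 0.0145% passed, 2 of 13810. At an unadjusted p under 0.05 there were 5 members, Slc12a2 with a positive difference and Gabra2, Gabra3, Gabra5 and Nlgn2 with negative ones (20.8% of the members tested, against 7.96% of all genes). DESeq2 called 0 members and had 0 at an unadjusted p under 0.05. The median log2 difference, trained minus untrained, was -0.04 over the members and 0.01 over all genes. With 2 mice in a group, the p-values measure the spread between these 4 sections.

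**Figure D4:**
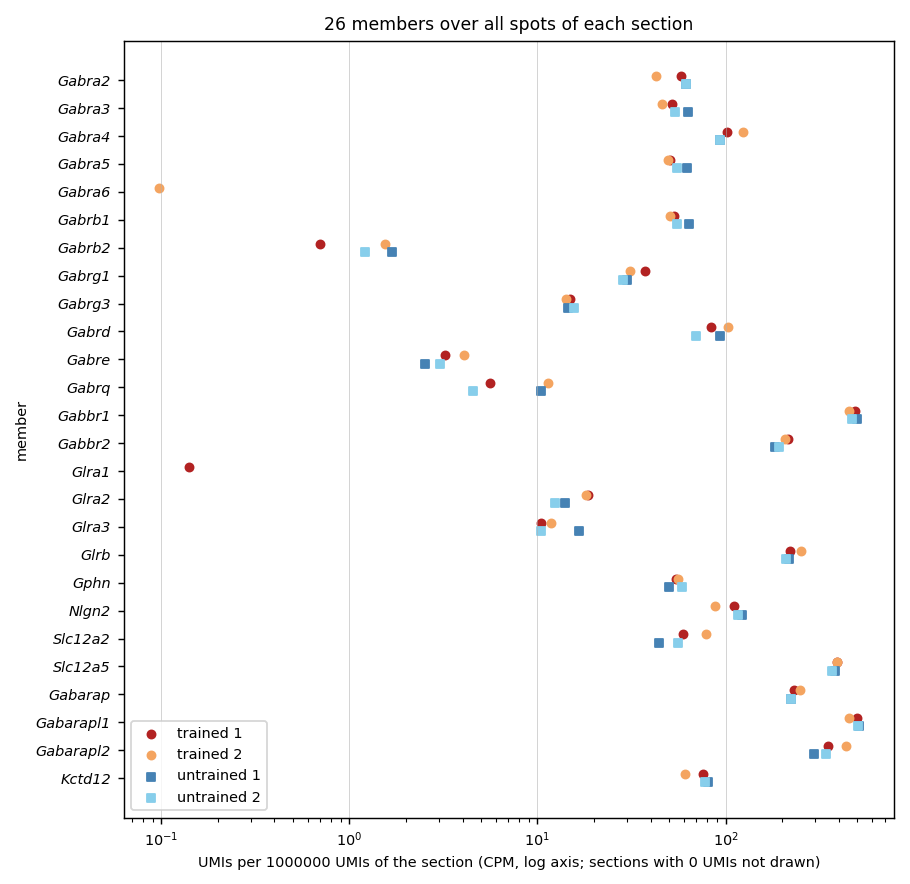
CPM (log x axis) of the 26 members over all spots of each section, with trained sections as circles and untrained sections as squares. For most members the 4 points lie close together, and Gabra6 and Glra1 have 1 UMI each.

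Slc12a2 had 59.4, 78.3, 44.4 and 56.1 CPM over the whole section, and the groups did not overlap. Its log2 difference was 0.36 with a 95% interval from 0.03 to 0.69 (adjusted p = 0.597). Gabra3 had 51.7, 46.0, 63.5 and 53.9 CPM, again with no overlap, a difference of -0.34 with an interval from -0.65 to -0.02 (adjusted p = 0.601). Both trained sections lay above both untrained ones in 10 of the 24 members and below them in 7. Among the 13972 genes with at least 35 UMIs, the lowest total of a tested member, the shares were 28.9% above and 12% below.

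These counts depended on the sections kept. Without trained 1, which leaves trained 2 as the lone trained section, 5 members were called, Slc12a2 higher by 0.48 (adjusted p = 0.0216) and Gabra2, Nlgn2, Kctd12 and Gabra3 lower by -0.66, -0.57, -0.52 and -0.48 (adjusted p = 0.00105 to 0.0347). In that fit 5.96% of all 14218 genes were called. The lone section is assumed there to vary like the others. Without trained 2, 0 members were called by edgeR, 0 had an unadjusted p under 0.05, and the differences of Slc12a2 and Gabra2 were 0.20 and -0.12. Without untrained 1 both counts were 0 as well. In the comparison of regions Slc12a2 was higher in the white matter and also in the choroid plexus, and Gabra2 was lower in the thalamus. Trained 2 had more marker signal of the white matter and less of the choroid plexus, and the part of section content in the training difference was not tested.

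By region, 243 pairs of member and region were tested, the 3 hippocampal layers together being 1 of the 16 regions of this count, and edgeR called 0. Over all genes 0.026% of 92147 pairs were called. At an unadjusted p under 0.05 there were 17 pairs (7% of the pairs, against 6.04% of the pairs of all genes), and DESeq2 called 0 pairs, with 0 at an unadjusted p under 0.05. Without untrained 2, 2 pairs were called, Nlgn2 in layer 5 cortex (-1.11, adjusted p = 0.0407) and Gabrg1 in the region of the piriform and amygdala list (2.40, adjusted p = 0.0407), and in that fit 0.208% of all 104715 pairs were called.

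**Figure D5:**
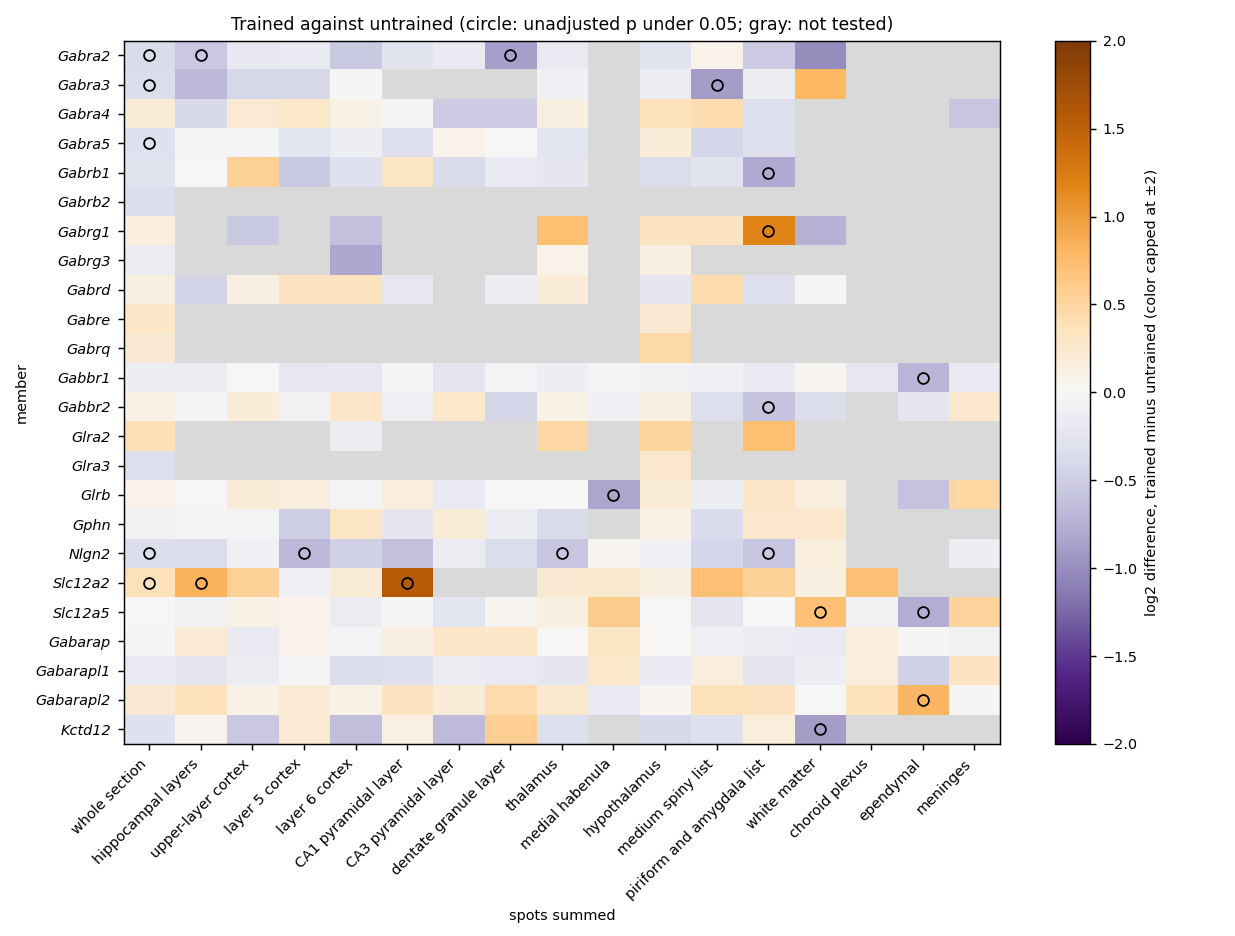
Log2 difference, trained minus untrained, of each member (rows) over the whole section, the hippocampal layers together and each region (columns), with a circle where the unadjusted p was under 0.05 and gray where the member was not tested. Circles are scattered over members and regions, and 0 pairs passed the adjustment.

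In the pooled hippocampal layers, the structure the study was about, 0 members and 0% of 8761 genes were called by edgeR. Gabra5, the subunit that marked these layers, had 163, 171, 184 and 164 CPM there, and its groups overlapped. Gabbr1 had 457, 434, 506 and 471 CPM. Gabra2 had 80.6, 56.0, 125 and 84.9 CPM, a log2 difference of -0.56 with a 95% interval from -1.11 to -0.01 (adjusted p = 0.849).

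The pair with the smallest p was Slc12a5 in the white matter, at 255, 288, 155 and 165 CPM, a difference of 0.71 with an interval from 0.25 to 1.18 (adjusted p = 0.536). It was 0.50 with thinned sums and 0.25 with single-spot scores. Next was Slc12a2 in the CA1 pyramidal layer, at 50.5, 81.5, 7.90 and 30.4 CPM from 13, 27, 1 and 7 UMIs, a difference of 1.57 with an interval from 0.50 to 2.65 (adjusted p = 0.445). All 8 white matter markers together summed to 2628, 5398, 2189 and 2438 CPM in these CA1 spots, so the section highest in Slc12a2 was also the highest in these markers, and their part in the difference was not tested. The Slc12a2 difference was between 1.16 without untrained 1 and 2.98 without untrained 2, and 0.61 where regions came from single-spot marker scores (adjusted p = 0.893). Nlgn2 in the thalamus had 78.4, 76.9, 109 and 110 CPM, a difference of -0.57 with an interval from -0.97 to -0.18 (adjusted p = 0.718), and of -0.25 with thinned sums.

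A rank-sum test that takes single spots as the unit, the kind of test in the methods of the study, gave other counts in the hippocampal layers. Over 439 trained and 367 untrained spots it called 3 of 21 members, Gabarapl2, Gabarap and Slc12a2, all higher in trained, and 11.4% of all genes. In the 408 trained and 317 untrained spots with at least 601 UMIs it called 2 members and 4.41% of all genes, and after thinning those spots to 601 UMIs each it called 0 of 18 members and 0.0582% of all genes. Spots within a section share a mouse, so they do not replicate the training.

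Last, the training effect in each region was tested against the mean effect in the other regions. Of 300 pairs of member and region edgeR called 0, with 15 at an unadjusted p under 0.05 (5% of the pairs, and 5.10% of the pairs of all genes). Over all genes 0.0293% of 139935 pairs were called. DESeq2 called 0 pairs, with 13 at an unadjusted p under 0.05. The smallest p belonged to Slc12a5 in the white matter, where the effect exceeded that in the other regions by 0.69 ± 0.24 (SE, adjusted p = 0.773).

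Other genes of GABA and glycine signaling were read from a list of 56, covering synthesis and uptake of the transmitters, receptor scaffolds and traffic, GABA-B effectors, further subunits, chloride handling and partners of the GABARAP family. Over the whole section 49 were tested and edgeR called 0, with 25 positive and 24 negative log2 differences. An unadjusted p under 0.05, which 7.96% of all genes had, was found for 5 of them: Hap1 at -0.53, Slc32a1 at 0.33, Gad1 at 0.30, Mdga1 at -0.63 and Nlgn3 at -0.34. Hap1, a protein of receptor traffic, is also one of the markers that placed the hypothalamus. Those markers together were highest in trained 2, while Hap1 itself was lower in trained (-0.53). Their part in these differences was not tested. Slc32a1 loads GABA and glycine into vesicles and Gad1 makes GABA. In the hippocampal layers 41 were tested and 0 called, with 23 positive and 18 negative differences and 8 at an unadjusted p under 0.05, where 5.75% of all genes had one. Between regions, with Hap1 set aside because it placed a region, 104 of 630 pairs of these genes were higher and 62 lower, beside 9.46% and 6.14% of the pairs of all genes.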

How the data were processed

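Visium sections of 2 trained and 2 untrained mice were analysed from the raw UMI count per gene and spot, as the authors deposited it after Space Ranger. The paper's methods name the mm10 reference, the labels name mm39, Cell Ranger 8 and STAR, and the Space Ranger versions of the methods and the file headers differ. Coordinates are those of GRCm38. The members and lists were chosen with earlier results of these data known.

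Spots over tissue were placed in 15 regions by marker lists. Marker UMIs were summed over a spot and its neighbors, scaled to 10000 UMIs, logged and standardized within the section. A spot took its leading list where that list stood at least 1.0 SD above the mean and the patch held at least 5 spots. For the CA1 and CA3 pyramidal layers, the dentate granule layer and the medial habenula, the largest patch of a section alone was kept instead. Regions from single-spot scores had no patch rule. Regions needed 20 spots in every section. No doublet caller was run, since a spot can hold several cells.

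Counts were summed per region and section, because the section is the replicate. They were tested with edgeR 4.0.16 in R 4.3.3 (filterByExpr, TMM, quasi-likelihood, two-sided) with Benjamini-Hochberg adjustment over all tested genes of a comparison at 0.05. The section was a block between regions. The scripts were tested on simulated data. Alternatives were DESeq2 1.42.0, no filter, thinned sums, abundant genes left out, other region assignments, the replicate block, no section block, a rank-sum test over spots, and leaving out each section.

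Depth was 3560294 to 10330015 UMIs per section. Limits for 0 UMIs use 3 UMIs and, like the UMI counts themselves, cover counting error only. Members called in a comparison, members found mainly in 1 region and, where none was called, the 2 with the smallest p were named by role. Members with an unadjusted p under 0.05, and those called without 1 section, were added after their values were seen.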

Additional observations from a re-analysis of the deposited data

Results flagged for a closer look

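Of the 20 members tested for a training effect that differs between regions, edgeR called 0 in 300 pairs, with 15 at an unadjusted p under 0.05, and DESeq2 called 0. Among 660 pairs of the other genes of the pathway list, 2 were called, beside 0.0293% of the pairs of all genes, both in the region of the piriform and amygdala list. The training effect on Gad1, an enzyme that makes GABA, exceeded the mean effect in the other regions by 0.928 ± 0.21 on the log2 scale (SE, edgeR, adjusted p = 0.0202). Its levels were 401, 894, 282 and 302 CPM in trained 1, trained 2, untrained 1 and untrained 2. The effect on Slc32a1, the vesicular transporter of GABA and glycine, exceeded that mean by 1.09 ± 0.27 (adjusted p = 0.0456), with 181, 302, 97.6 and 90.7 CPM. Within the region alone neither gene passed, with adjusted p-values of 0.250 and 0.180 by edgeR. With each section left out in turn, each gene was called in 1 of 4 fits, with differences from 0.30 to 1.43 (adjusted p = 2.63e-10 to 1.0) for Gad1 and from 0.86 to 1.37 (adjusted p = 0.000512 to 0.565) for Slc32a1. Of 6 other alternatives, Gad1 was called in 3 (adjusted p = 0.00213 to 0.172) and Slc32a1 in 2 (adjusted p = 0.0375 to 0.674). Trained 2 was the highest section for both. In the same spots the hypothalamus markers summed to 1886, 4929, 1730 and 1430 CPM and the white matter markers to 2857, 5180, 2215 and 1567 CPM, again highest in trained 2, and their part in the difference was not tested.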

How the results depend on the processing

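Across whole sections, the 0 members called by edgeR stayed 0 under DESeq2, without the filter, with thinned sums and without abundant genes, and the count ranged from 0 to 5 as sections were left out, the 5 being without trained 1. By region the count ranged from 0 to 2 as sections were left out, the 2 being without untrained 2. The rank-sum test over unthinned spots gave 3. Between regions, 89 calls became 56 with thinned sums (36 higher and 20 lower), which tested fewer UMIs, and 69 to 97 as sections were left out. These counts stand without the shares of all genes in the same fits, so they do not show whether the members moved more than other genes. Single-spot marker scores turned the sign of Gabrd in CA3 (0.14, adjusted p = 0.733, from -1.26) and of Gabra3 in the white matter (-0.015, adjusted p = 0.976, from 0.77), and the cause was not tested. Same-numbered sections did not deviate together (correlations of 0.0190 over 13810 genes and -0.0169 over 8761 genes). These correlations cannot show whether same-numbered sections shared a batch. With the replicate block edgeR gave 0 calls over whole sections and 0 by region. Over whole sections 7 members then had an unadjusted p under 0.05, against 5 without the block. Members with few UMIs, such as Gabrb2 with 35, limit what these sums can show.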
